A study of Mus musculus with 134 samples.

Results

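Mammary tumors of 134 female mice were divided by the level of Tnfsf10, a gene of chromosome 3, and all other genes were then compared between the divided tumors. A tumor was called Tnfsf10-high when its log2 level was above 8.1 and Tnfsf10-low when it was 8.1 or below, which gave 66 Tnfsf10-high and 68 Tnfsf10-low tumors of 134 in all. The Tnfsf10 value itself chose the groups, so it is described and not tested. Each tumor arose in an untreated mouse carrying the MMTV-PyMT transgene, in which a mammary tumor virus promoter drives the polyoma middle T oncogene in the mammary epithelium. The mice were second-generation backcross females. MMTV-PyMT males were bred to females of the wild-derived strain MOLF/Ei, and transgenic F1 males were bred to FVB/NJ females. The transgene and the FVB/NJ mother were shared by all of the tumors, no tumor without the transgene and no normal mammary gland was part of the comparison, and the age of the animals was not given in the sources used here. Tumors were left to grow until the animal neared humane endpoints, and the labels name a separate animal for each array.

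Tnfsf10 encodes TRAIL, a ligand of the tumor necrosis factor family that is made as a membrane protein and binds death receptors on neighboring cells. Receptor binding gathers the adaptor Fadd and the initiator caspase Casp8, which can start apoptosis directly or through the Bcl2 family and the mitochondrion. TRAIL is known for killing transformed cells more readily than normal ones, and its gene is among those that interferons can induce. A second-generation backcross animal receives an FVB/NJ allele of each autosomal gene from its mother and either an FVB/NJ or a MOLF/Ei allele from its father, and genes that lie close together on a chromosome are mostly inherited together. Genotypes were not analysed here, so the tumors were known only by their expression.

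Tnfsf10 averaged 9.06 ± 0.41 in the Tnfsf10-high tumors and 7.12 ± 0.38 in the Tnfsf10-low tumors (log2 signal, SD, n = 66 and 68). The high tumors ran from 8.11 through a median of 9.09 to 10.30, and the low tumors from 6.24 through a median of 7.15 to 7.88. The difference of 1.94 on the log2 scale is 3.84-fold, and no value fell in the 0.222 between the lowest high tumor and the highest low tumor. The values just inside the threshold were 8.11 in tumor 13, 8.23 in tumor 19, 8.43 in tumors 37 and 131 and 8.45 in tumor 99, and those just outside were 7.88 in tumor 5, 7.82 in tumor 45, 7.80 in tumor 58, 7.73 in tumor 106 and 7.72 in tumor 73. Only tumors 13 and 19 lay within 0.2 of the threshold. Across all tumors the SD of Tnfsf10 was 1.05, the 73rd largest of 19938 genes, against a median of 0.187 over genes. All 68 low tumors were above a detection floor of 5.71, which 95% of the genes for smell and pheromone receptors do not exceed in their average over tumors, so the gene gave signal in both groups. The whole tumor was measured, and fewer cells of a type cannot be told apart from less RNA per cell.

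**Figure D1:**
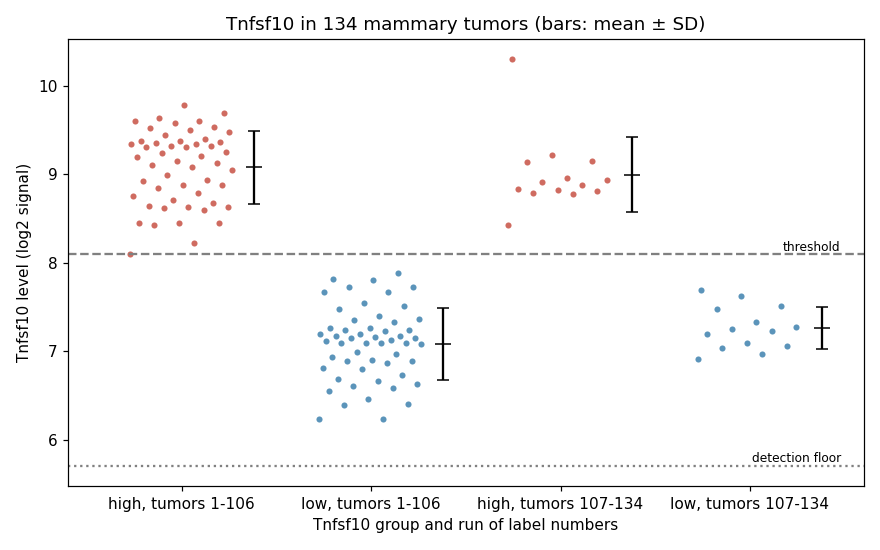
Tnfsf10 level (log2 signal, y axis) of each tumor by Tnfsf10 group and run of label numbers (x axis), with the mean and SD beside the points, the threshold of 8.1 dashed and the detection floor dotted. In both runs the groups are separated by an empty band above 7.88 and below 8.11.

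The label numbers of the tumors fall into 2 runs of ascending animal identifiers, 1 to 106 and 107 to 134, and these were treated as a possible technical batch. The high group held 52 tumors of the first run and 14 of the second, and the low group 54 and 14. The Tnfsf10 difference was 3.98-fold within the first run and 3.33-fold within the second. Array quality, the median absolute deviation of an array from the median over arrays, had a median of 0.102 in high and 0.109 in low tumors. The arrays of tumors 109 to 120 resembled those of tumors 97 to 108 taken in the same order, with a mean correlation of gene deviations of 0.365 over 12 pairs against 0.0648 for the other pairings of these tumors, and tumors 104 and 116 were the most alike of all pairs at 0.785. In 9 of the 12 pairs both tumors were in the same Tnfsf10 group. Whether some of these are repeat arrays of 1 tumor was not tested, and if so the groups would hold fewer than 66 and 68 separate tumors. Tumor 73, a low tumor with an array quality of 0.232, was left out in a further setting. Tumors 58, 56 and 94, with larger values of 0.273, 0.252 and 0.235, were kept in it. Epithelial markers of the labelled tissue were present in both groups, with Epcam at 11.3 and 11.2 and Krt8 at 12.2 and 12.1 in high and low tumors.

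The comparison of all other genes asked which of them differ in level with Tnfsf10, and whether those on the same chromosome do so more often. Of 19937 genes, 63 passed the test at an adjusted p under 0.05 (limma, Benjamini-Hochberg over all genes), 40 higher (0.201%) and 23 lower (0.115%) in Tnfsf10-high tumors, which is 0.316% of all genes. On chromosome 3, 28 of 942 genes passed (2.97%), 17 of them higher (1.80%) and 11 lower (1.17%). On the other chromosomes, with the genes of no known place, 35 of 18995 passed (0.184%), 23 higher (0.121%) and 12 lower (0.0632%). At an adjusted p under 0.001 there were 10 genes of chromosome 3 and 0 of the others, for which limma gave 2602 at an unadjusted p under 0.05. Over all genes 14.0% had an unadjusted p under 0.05, and on chromosome 3 20.8% did. For 0 of the 19937 genes were the groups without overlap (0.00%), so that every gene apart from Tnfsf10 had high and low tumors at the same levels.

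**Figure D2:**
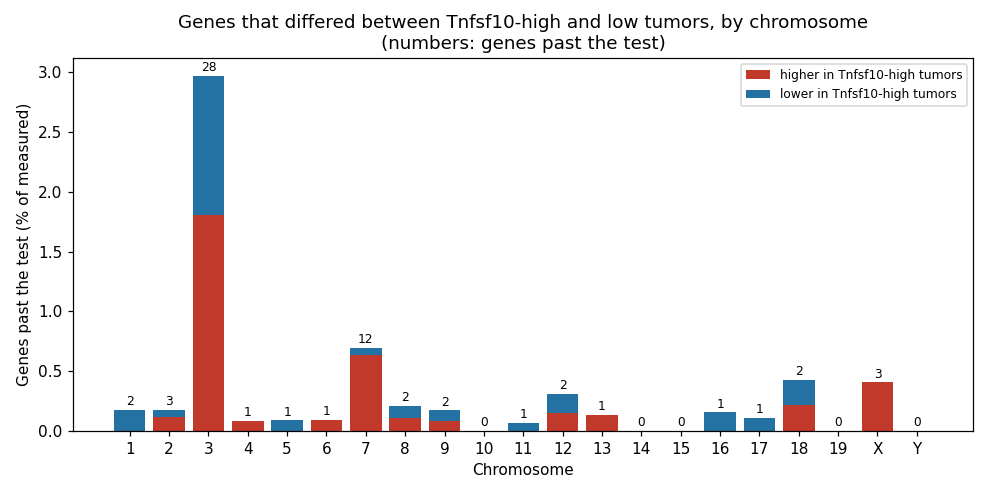
Share of measured genes past the test (percent, y axis) on each chromosome (x axis), with Tnfsf10 itself left out, split into genes higher (red) and lower (blue) in Tnfsf10-high tumors, and the number of genes above each bar. Chromosome 3 reached 2.97% with 28 genes, and chromosome 7 reached 0.692% with 12.

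Mfsd8, a lysosomal membrane transporter whose human gene is mutated in a form of neuronal ceroid lipofuscinosis, had the smallest p of the chromosome 3 genes. Its level in high tumors ran from 7.02 through a median of 7.63 to 8.44, and in low tumors from 6.70 through 7.21 to 8.40. The ranges overlapped almost wholly, yet 64 of 66 high tumors lay above the low median and 5 of 68 low tumors above the high median. The difference was 0.44 ± 0.05 (SE, log2, adjusted p = 2e-11), or 1.36-fold, and it was 0.41 within the first run of label numbers and 0.54 within the second.

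Tiparp, an ADP-ribosyltransferase and a target of the aryl hydrocarbon receptor, had the largest difference of the chromosome 3 genes that passed. High tumors ran from 6.49 through a median of 7.42 to 8.66 and low tumors from 6.13 through 6.77 to 8.54. The high group was 0.56 ± 0.07 above the low group (SE, log2, adjusted p = 2.1e-08), or 1.47-fold. The difference was 0.51 in the first run and 0.73 in the second, and 63 of 66 high tumors were above the low median. Its neighbors Lekr1 and Ccnl1, the next measured genes on the chromosome, moved in opposite directions. Ccnl1, a cyclin of the splicing machinery, averaged 9.20 in high and 8.96 in low tumors and was 0.24 ± 0.04 higher (SE, adjusted p = 5.7e-05), while Lekr1 averaged 6.09 and 6.31 and was lower by 0.22 ± 0.04 (SE, adjusted p = 0.0031).

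Alg5, which makes the dolichol-linked glucose used in N-glycan assembly, ran from 8.67 through a median of 9.35 to 9.99 in high tumors and from 8.19 through 8.97 to 9.75 in low tumors. It was 1.28-fold higher in the high group (0.35 ± 0.05 log2, SE, adjusted p = 2.1e-08), and 0.33 and 0.42 higher within the runs. P2ry12, the ADP receptor of platelets and microglia, ran from 5.99 through 6.73 to 8.61 in high and from 5.69 through 6.26 to 7.59 in low tumors. That was 1.38-fold higher in the high group (0.46 ± 0.08 log2, SE, adjusted p = 7.9e-05), and 0.50 and 0.32 higher within the runs. Both genes had most high tumors above the low median, 62 of 66 for Alg5 and 55 of 66 for P2ry12.

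Among the remaining genes with the 15 largest passing differences on chromosome 3, 5 were higher in high tumors. Rps3a1, a ribosomal protein of the small subunit, averaged 9.79 ± 0.36 in high and 9.45 ± 0.35 in low tumors (SD), a difference of 0.34. Ribosomal protein genes have many near-identical copies, so its probe set may not be specific to this gene. Alg14, another enzyme of N-glycan assembly, averaged 8.68 and 8.39. Ppm1l, a protein phosphatase, averaged 7.58 and 7.30, and Lxn, an inhibitor of carboxypeptidase A, averaged 9.39 and 9.12. Pdcd10, an adaptor of germinal center kinases that is mutated in human cerebral cavernous malformations, averaged 7.17 and 6.91 in high and low tumors. These differences were 0.27 to 0.34 on the log2 scale, less than the SD within either group for every one but Ppm1l.

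The chromosome 3 genes that were lower in high tumors included the nearest gene to pass. Tnik, a kinase that binds Traf2 and acts in Wnt signaling, is the 5th measured gene after Tnfsf10. It ran from 7.20 through a median of 7.68 to 8.65 in high tumors and from 7.37 through 7.96 to 8.94 in low tumors. It fell by 0.24 ± 0.05 in the high group (SE, log2, adjusted p = 0.0024), with 57 of 68 low tumors above the high median. Zc2hc1a, at the other side of Tnfsf10, ran from 7.81 through 8.20 to 8.83 in high tumors and from 7.45 through 8.50 to 9.29 in low tumors. It was 1.22-fold lower in the high group (-0.28 ± 0.04 log2, SE, adjusted p = 2.2e-06), and -0.28 and -0.29 within the runs. Nr1h5, a nuclear receptor related to the bile acid receptor, averaged 5.87 ± 0.76 in high and 6.42 ± 0.76 in low tumors (SD, difference -0.55, adjusted p = 0.025), and Glt28d2 averaged 8.24 and 8.50.

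**Figure D3:**
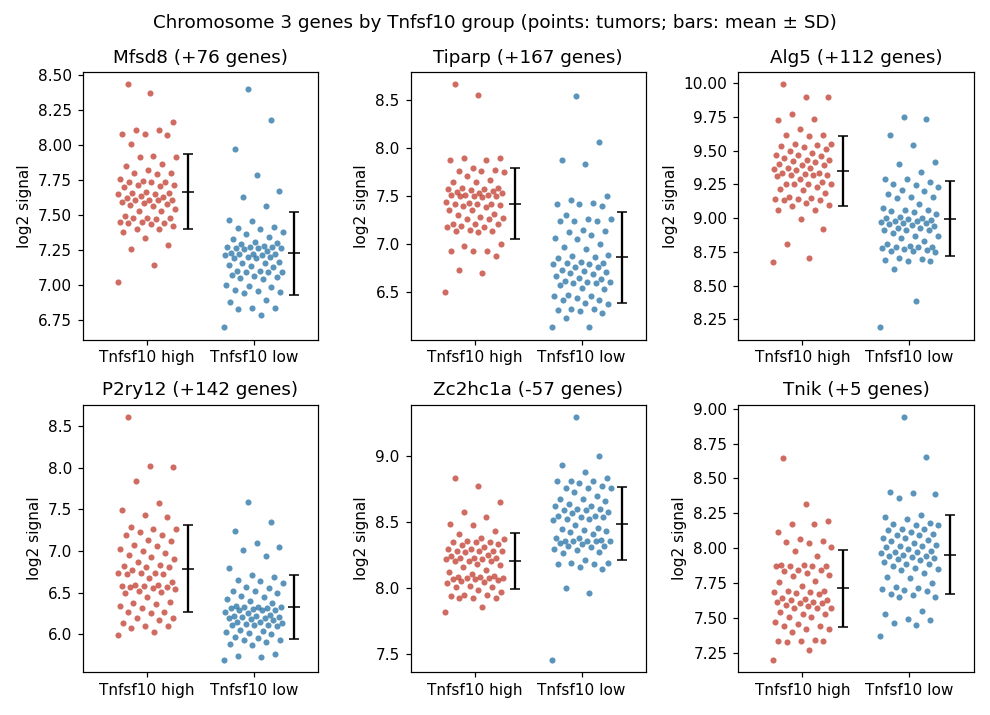
Levels (log2 signal, y axes) of 6 chromosome 3 genes that passed the test in Tnfsf10-high (left, n = 66) and Tnfsf10-low (right, n = 68) tumors, a point for each tumor, with mean and SD beside them and the place of each gene in measured genes from Tnfsf10 above each panel. The group means differ by 0.24 to 0.56 while the ranges overlap in every panel.

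The other 13 chromosome 3 genes that passed were not among the 15 largest passing differences. Acad9 came under the naming rule by its correlation with Tnfsf10, and the rest are named after their values were seen. Higher in high tumors were Impa1, Gclm, Gdap2, Pag1, Acad9, Rit1 and Intu, by 0.08 to 0.19. Gclm is the modifier subunit of the enzyme that starts glutathione synthesis, and Acad9 a mitochondrial protein needed to assemble complex I. Lower were Cp, Zfp704, D3Ertd751e, 4632415L05Rik, Proser1 and Rfxap, by differences between -0.21 and -0.10. Cp, the copper protein ceruloplasmin, averaged 11.2 in high and 11.5 in low tumors. D3Ertd751e lay below the detection floor in the mean over tumors, so 27 of the 28 genes were above it.

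The genes that passed were unevenly placed along the chromosome. In the order of measured genes, Tnfsf10 has 62 before it and 880 after it. Before it 6 of 62 genes passed (9.68%), among the first 300 after it 18 of 300 (6.00%), and beyond those 4 of 580 (0.690%), a split chosen after the positions were seen. The 4 distant genes were Gdap2, Nr1h5, Alg14 and Gclm, at 532 to 697 genes from Tnfsf10. Of the 200 genes that follow the first 300, 0 passed in limma.

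The genes next to Tnfsf10 were not the ones with the largest differences. Of the 10 measured genes on each side, 1 of 20 passed, which was Tnik. The shares were 9.68% of all genes before Tnfsf10, 6.00% of the first 300 after it and 0.316% of all genes. With 1 call, the 20 genes cannot be set apart from the rest of that region. The nearest neighbor before it, Nceh1, a cholesterol ester hydrolase, averaged 8.38 in high and 8.41 in low tumors, and the nearest after it, Ghsr, the ghrelin receptor, averaged 6.92 and 6.99. Ect2, which is needed for cytokinesis, lay 2 genes before Tnfsf10 and averaged 9.18 ± 0.43 in high and 8.95 ± 0.51 in low tumors (SD, difference 0.23, adjusted p = 0.17). The differences of the 20 genes lay between -0.24 and 0.23. The largest of the called differences among the first 300 genes, those of Mfsd8, Alg5, P2ry12, Tiparp and Rps3a1, lay at 76, 112, 142, 167 and 243 genes after Tnfsf10.

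**Figure D4:**
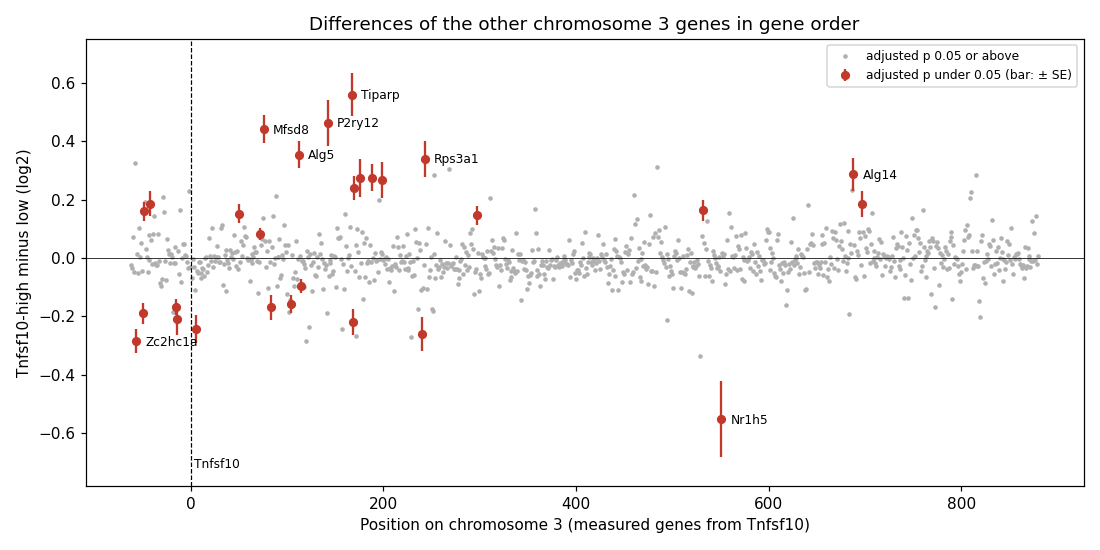
Difference between Tnfsf10-high and Tnfsf10-low tumors (log2, y axis) for each of 942 chromosome 3 genes by its place in measured genes from Tnfsf10 (x axis), with genes past the test in red with their SE and the others in grey. Of the 28 red points, 24 lie to the left of place 300, in both directions around 0.

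Single tumors went against their group in the 5 genes Mfsd8, Tiparp, Alg5, P2ry12 and Zc2hc1a, as seen after the values were known. Some did so in 1 gene and others in several. For Mfsd8, the 2 high and 5 low tumors past the median of the other group were each past it in another gene too. In 41 tumors at least 1 of the 5 genes was past the median of the other group, and in 4 tumors 3 genes were. Tumors 54 and 133 had low Tnfsf10, at 6.89 and 7.34, but Mfsd8 at 7.98 and 7.79, Alg5 at 9.54 and 9.75 and P2ry12 at 7.01 and 6.79, all above the high medians. Tumor 94 had high Tnfsf10, at 9.37, with Alg5 at 8.67, P2ry12 at 6.26 and Zc2hc1a at 8.65, all on the far side of the low medians. The fourth was tumor 73. Array quality was 0.235 in tumor 94, 0.232 in tumor 73, 0.173 in tumor 133 and 0.086 in tumor 54. The group medians were 0.102 in high and 0.109 in low tumors, so most of these arrays lay far from the typical array.

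The 10 genes with the highest absolute correlation with Tnfsf10 over the 134 tumors were all on chromosome 3. They were led by Mfsd8 (Pearson r = 0.61, Spearman 0.64), Tiparp (0.54 and 0.56) and Alg5 (0.53 and 0.54), and Zc2hc1a was the only negative one (-0.44 and -0.42). Within the high tumors alone the r of Mfsd8 was 0.05 and within the low tumors 0.22, and for Tiparp these were 0.10 and 0.11. For Acad9 and Pdcd10 r was 0.28 and 0.23 in high tumors and 0.24 and 0.32 in low tumors. The groups were divided by Tnfsf10 itself, which narrows its SD from 1.05 over all tumors to 0.41 in high and 0.38 in low tumors, and r is lower over a narrower range. All points share arrays normalized together, and these values are descriptions.

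Outside chromosome 3, the 10 genes of the naming rule with the most positive differences were led by Dkkl1, a secreted protein related to the dickkopf family. It ran from 8.35 through a median of 10.3 to 11.5 in high tumors and from 7.18 through 9.78 to 10.8 in low tumors, and 47 of 66 high tumors were above the low median. The difference was 0.56 ± 0.14 (SE, adjusted p = 0.035), and it was 0.67 in the first run and 0.16 in the second. Nxf7, of the family of nuclear RNA export factors, averaged 6.40 and 6.00 in high and low tumors. Sat1, which acetylates polyamines, averaged 10.03 ± 0.31 and 9.77 ± 0.42 (SD), and Tlr13, an endosomal sensor of bacterial ribosomal RNA that is made by myeloid cells, averaged 6.91 and 6.66. Folr1, a folate receptor, averaged 9.02 and 8.78 in high and low tumors. Gmfg, Mgat2, Selenos, Zfp418 and Slc30a4, the last a zinc transporter, were higher by 0.21 to 0.28.

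Lower in high tumors outside chromosome 3 was foremost Arsi, a sulfatase, which ran from 5.57 through a median of 6.19 to 7.08 in high tumors and from 5.73 through 6.42 to 9.55 in low tumors. Its difference of -0.37 ± 0.09 (SE, adjusted p = 0.038) came with 11 low tumors above the highest high tumor. Ptpn14, a phosphatase that restrains Yap signaling, averaged 8.64 and 8.85, and Adamts10, an extracellular metalloproteinase, averaged 8.08 and 8.26 in high and low tumors. The other 7 were Exoc3l4, Tll1, Rsad1, Nat14, Rnft2 and the olfactory receptors Olfr1024 and Olfr19, with differences between -0.16 and -0.07, and Tll1 and both receptors lay under the detection floor in the mean over tumors. Chromosome 7 held 12 of the 35 genes of other chromosomes, 11 of them higher, at places from 50 to 1724 of its 1734 measured genes, which was seen after the fact. That was 0.692% of its genes, against 0.184% of all genes outside chromosome 3.

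The genes of other chromosomes that passed had adjusted p between 0.0031 and 0.049, while 10 of the 28 on chromosome 3 were under 0.001, so that a small change could end the call of more of the first. Few calls were lost with the run as a covariate (28 of 28 on chromosome 3 and 35 of 35 elsewhere passed in the same direction). The same held for the mean of all probe sets (27 and 35). With the continuous Tnfsf10 level 27 and 32 passed, but that fit uses the values that set the groups and is no separate check. Another fit had scores of fibroblasts, adipocytes, endothelium, macrophages, T and NK cells and skeletal muscle as covariates. In it 23 of the 28 chromosome 3 genes and 11 of the 35 others passed in the same direction. Without tumors 109 to 120 these were 20 and 12, and without tumors 13 and 19, the 2 next to the threshold, 25 and 12. They were 26 and 19 with quantile normalization once more, 26 and 23 with array quality as a covariate, and 25 and 19 without tumor 116. All 28 and all 35 genes had the same sign within the second run alone, where 0 genes passed with 28 tumors, and within the first run 16 of 28 and 10 of 35 passed. The test of whether a difference itself differed between the runs gave 0 genes of 19937 (limma interaction, lowest adjusted p = 0.13), with 447 at an unadjusted p under 0.05.

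Apoptosis genes were compared because Tnfsf10 acts through them. Of 45 measured genes in 4 lists, 1 passed (2.22%), against 0.316% of all genes, and 4 (8.89%) had an unadjusted p under 0.05, against 14.0% of all genes. The median difference over the 45 was 0.01, against 0.00 over all genes (-0.0047). These shares rest on 1 and 4 genes, and their difference from all genes was not tested.

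The receptors of TRAIL showed small differences. Tnfrsf10b, the death receptor of TRAIL in mice, ran from 7.19 through a median of 7.71 to 8.37 in high tumors and from 7.22 through 7.70 to 8.68 in low tumors, a difference of 0.03 ± 0.04 (SE, adjusted p = 0.79). The decoy receptors Tnfrsf22 and Tnfrsf23 averaged 7.48 and 7.03 in high tumors against 7.49 and 6.93 in low tumors, and Tnfrsf11b, osteoprotegerin, which binds TRAIL in solution, averaged 6.35 and 6.38. Of the 5 receptor genes 0 passed, against 0.316% of all genes, so a list this short says little by its count. None had an unadjusted p under 0.05, against 14.0% of all genes, and the differences lay between -0.03 and 0.10.

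Of the 15 death receptor signaling genes 1 passed, against 0.316% of all genes. Fadd, the adaptor between death receptors and caspases, ran from 7.08 through a median of 7.57 to 8.06 in high tumors and from 6.92 through 7.43 to 7.78 in low tumors. The groups overlapped, with 49 of 66 high tumors above the low median and 18 of 68 low tumors above the high median. Fadd was 0.14 ± 0.04 higher (SE, log2, adjusted p = 0.049), or 1.10-fold, and it passed in 5 of 14 alternative settings. Fadd is one of the 12 chromosome 7 genes counted above. Casp8, the initiator caspase, averaged 9.21 and 9.15 in high and low tumors, Cflar, its inhibitor, 8.26 and 8.22, and Fas, the receptor of Fas ligand, 5.94 and 5.98. Xiap, an inhibitor of caspases, averaged 8.15 and 8.06 (difference 0.09, adjusted p = 0.20), and Tnfrsf25, another death receptor, 6.17 and 6.26 (difference -0.10, adjusted p = 0.061).

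The Bcl2 family and the caspases gave 0 passing genes of 13 and of 12, against 0.316% of all genes, so these counts say little about the lists. Bcl2, which blocks apoptosis, averaged 9.48 ± 0.36 in high and 9.61 ± 0.42 in low tumors (SD, difference -0.13, adjusted p = 0.36). Bak1, which permeabilizes the outer mitochondrial membrane, averaged 8.55 and 8.45 (difference 0.11, adjusted p = 0.27). Mcl1, a further inhibitor of apoptosis that lies on chromosome 3 at 465 genes from Tnfsf10, averaged 10.12 and 10.09, and Casp6, an executioner caspase at 739 genes, averaged 9.21 and 9.18. Cycs, cytochrome c, averaged 11.5 and 11.4 in high and low tumors. The other tumor necrosis factor family ligands gave 0 passing of 13, with differences between -0.08 and 0.03, and 5 of the 13 were above the detection floor. Of these ligands 2 (15.4%) had an unadjusted p under 0.05 in limma, both lower in high tumors, against 14.0% of all genes.

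Interferon genes were compared because Tnfsf10 can be induced by interferons. Of 77 measured genes in 3 lists 0 passed in limma, against 0.316% of all genes, and 9 (11.7%) had an unadjusted p under 0.05, against 14.0% of all genes. Of those 9 genes 4 were higher and 5 lower in high tumors. The median difference was -0.06 over 36 type I interferon targets, -0.04 over 22 interferon gamma targets and 0.01 over 19 ligands, receptors and sensors.

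Type I targets varied widely among tumors of both groups. Ifit1, an effector that binds viral RNA, ran from 5.60 through a median of 6.48 to 8.81 in high tumors and from 5.61 through 6.61 to 8.61 in low tumors. Its difference was -0.13 ± 0.13 (SE, adjusted p = 0.67). Oas2, a synthetase of the RNase L pathway, had the most negative difference of the list at -0.23 ± 0.14 (SE, adjusted p = 0.43) and ran from 5.86 to 9.74 in high and from 6.09 to 10.06 in low tumors. Irf7, the regulator that amplifies the type I response, averaged 7.97 ± 0.72 in high and 8.17 ± 0.76 in low tumors (SD). Of the 36 genes 25 had negative and 11 positive differences.

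Genes of the interferon gamma response and of interferon signaling gave 0 passing of 22 and of 19, against 0.316% of all genes, so these counts say little about the lists. Gbp5, a guanylate-binding protein of chromosome 3, averaged 4.64 in high and 4.70 in low tumors, under the detection floor, and its neighbors Gbp7 and Gbp3, guanylate-binding proteins that also lie about 800 genes from Tnfsf10 on chromosome 3, averaged 7.34 and 6.93 in high tumors against 7.42 and 6.98 in low tumors. Irf1 averaged 8.42 and 8.44 in high and low tumors. Jak1 and Jak2, kinases of the interferon receptors, averaged 10.34 and 8.13 in high tumors against 10.23 and 8.04 in low tumors, with adjusted p of 0.31 and 0.25, and Ifngr1, a chain of the interferon gamma receptor, averaged 9.34 and 9.24. With a score of the type I list as a covariate, all 28 chromosome 3 genes and 34 of the 35 others passed. The median of the type I list mean was 7.35 in high and 7.38 in low tumors. A covariate so alike in the groups could move the differences little, and a part of interferon was not tested by it.

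**Figure D5:**
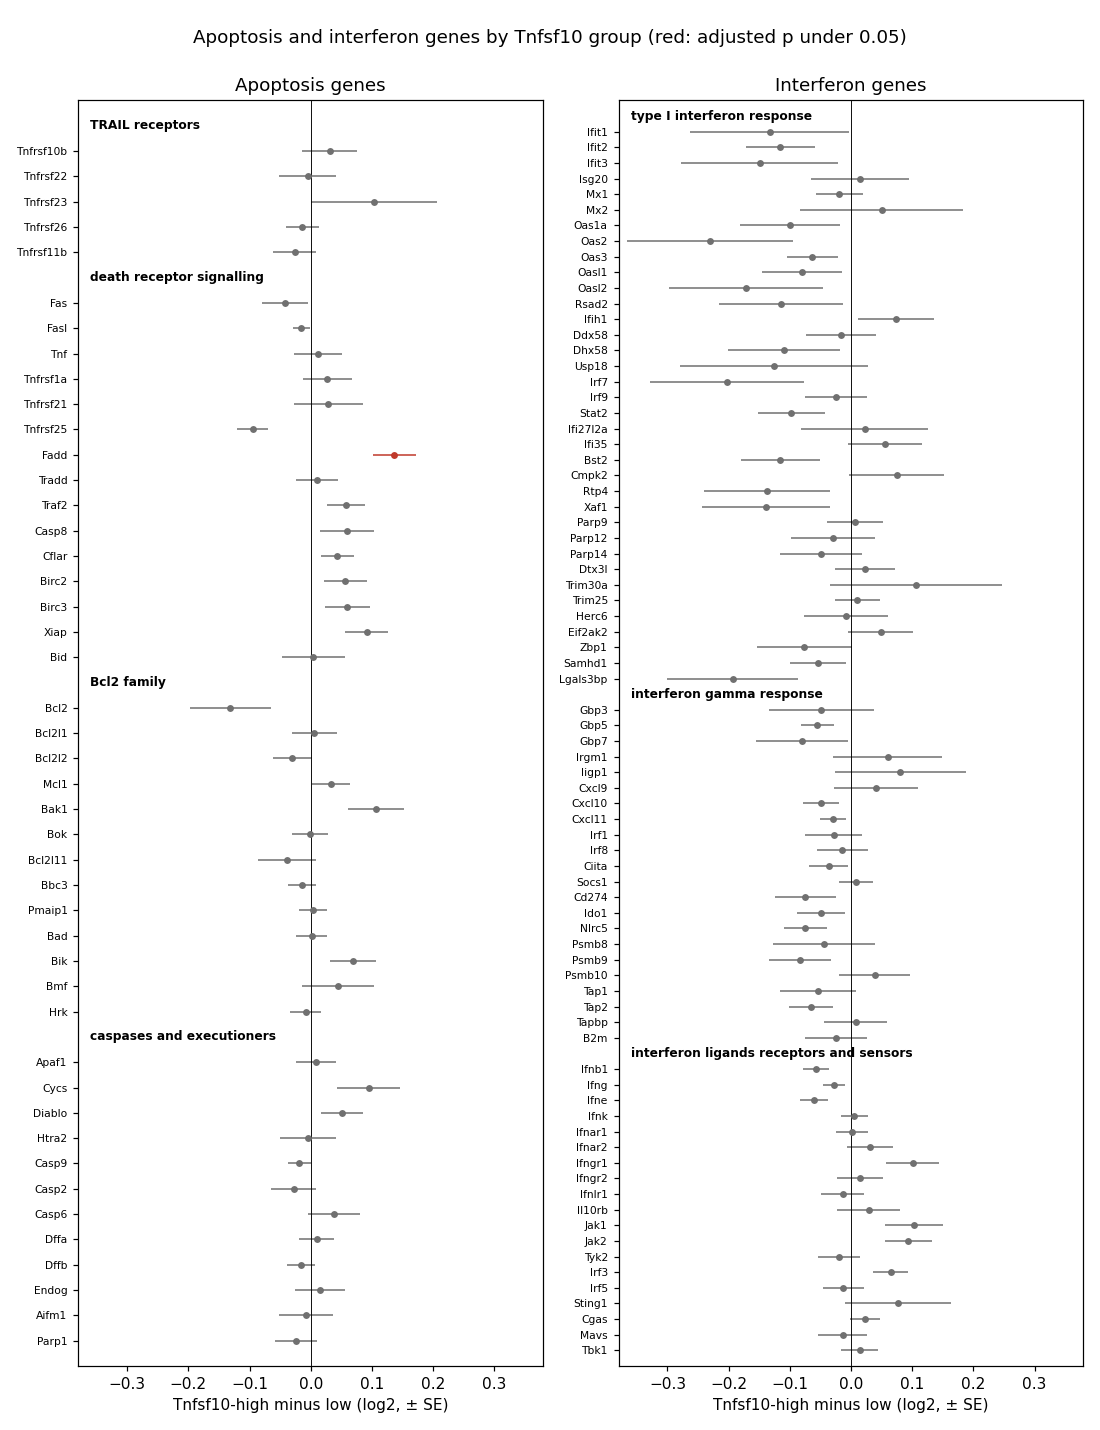
Difference between Tnfsf10-high and Tnfsf10-low tumors (log2 with SE, x axis) for each measured apoptosis gene (left) and interferon gene (right), grouped by list down the page, with genes past the test in red. Fadd is the only red point of 45 and 77 genes.

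Markers of other cell types were read beside these results. Of 79 measured markers 0 passed in limma, against 0.316% of all genes, and 8 (10.1%) had an unadjusted p under 0.05, against 14.0% of all genes. All 7 macrophage markers had positive differences, with a median of 0.10 and a range of 0.02 to 0.16, and 3 of them, Adgre1, C1qa and C1qb, had an unadjusted p under 0.05. All 5 skeletal muscle markers had positive differences of 0.13 to 0.22 (median 0.20) and all 5 adipocyte markers of 0.01 to 0.08. The median over tumors of the adipocyte list mean was 6.59 in high and 6.68 in low tumors, the other way. Of the 10 T and NK cell markers 9 had negative differences, between -0.12 and -0.01, and of the 5 B cell markers 4 did, with a median of -0.11 over the list. Jchain differed by 0.17, and the median of the B cell list mean was 5.12 in high and 5.10 in low tumors. Above the detection floor were 5 of the 10 T and NK cell markers and 2 of the 5 B cell markers. The milk proteins had positive differences too, from 0.09 for Csn3 to 0.52 for Wap, and Wap averaged 10.36 ± 0.91 in high and 9.84 ± 0.93 in low tumors (SD, adjusted p = 0.11). All 9 cell cycle genes had positive differences of 0.01 to 0.12. The cell type scores used as covariates were those of fibroblasts, adipocytes, endothelium, macrophages, T and NK cells and skeletal muscle. Milk, cell cycle, B cell, neutrophil, erythroid, luminal and basal markers were not adjusted for. With those scores Mfsd8 differed by 0.46, Tiparp by 0.57 and Alg5 by 0.36. For P2ry12, Tlr13 and Gmfg, which macrophages or their relatives express, the differences there were 0.42, 0.18 and 0.25.

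Tnfsf10 also varied within each group, with an SD of 0.41 in high and 0.38 in low tumors, and a fit of every gene on the Tnfsf10 level with the group as a covariate asked whether the same genes followed it there. That fit was added after the data had been seen. It gave 343 genes of 19937 (1.72%) and 31 of 942 on chromosome 3 (3.29%). Only Intu and D3Ertd751e were shared with the 63 genes that differed between the groups, which is 3.17% of these and 0.583% of the 343. Intu went the same way in both comparisons, while D3Ertd751e was lower in high tumors (-0.17) but rose with Tnfsf10 within the groups (0.20 per log2 unit). Mfsd8, Tiparp and Alg5 had adjusted p of 0.38, 0.53 and 0.81 in it. It gave 0 genes in the low tumors alone and 182 in the high tumors alone, 35 in the first run and 27 in the second, so the count rests on which tumors are used. Of the apoptosis genes 1 passed in it and of the interferon genes 0.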

How the data were processed

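RNA of each tumor was hybridised to a Mouse Gene 1.0 ST array. The authors deposited log2 values per probe set, made by RMA (version not stated; whether other arrays were normalized with these is not given in the sources used here). Of 35556 probe sets 21789 had a single symbol, and 21698 of these matched a RefSeq gene of GRCm38.p6 by gene ID, used for names and gene order only. The probe set with the highest mean stood for each of 19938 genes. The groups were compared with limma 3.58.1 in R 4.3.3, without covariates, on all genes but Tnfsf10. Tested on simulated data, the fit recovered 100 of 100 genes shifted 1 SD and 25 of 100 shifted 0.5 SD, with 8 false calls. How far these counts hold for the tumor arrays, some of which resembled each other, was not tested. The naming rule took the 10 genes on each side of Tnfsf10, the 15 largest passing differences of chromosome 3, the 10 most positive and 10 most negative passing ones elsewhere, the 10 highest correlations and the list members. Members, lists, tests and alternatives were chosen with earlier results of these data known. A set of 13 other settings changed the samples, the covariates, the probe set rule, the filter on dim genes or the normalization. Leaving out tumor 116 and the fits within groups were added after seeing the data. P-values measure the spread between arrays, which the labels give as separate animals. Whether some are repeat arrays of 1 tumor was not tested.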

Additional observations from a re-analysis of the deposited data

How the results depend on the processing

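Main counts were 17 higher and 11 lower on chromosome 3, 23 and 12 on the others, 1 apoptosis and 0 interferon genes. In the first run alone chromosome 3 gave 8 higher, the others 9 higher and 3 lower and apoptosis 0. In the second run all 5 counts were 0, and Xiap (-0.062) and Jak1 (-0.065), which had not passed, changed sign. With the continuous Tnfsf10 level, which uses more of the values that set the groups, the counts were 43 and 26 on chromosome 3, 263 and 202 on the others, 3 for apoptosis and 1 for interferon. Counts on the other chromosomes, higher and lower, were 11 and 1 without arrays 109 to 120, 10 and 2 without tumors 13 and 19, 11 and 2 with cell type scores, and 15 and 4 without tumor 116, each with 0 apoptosis genes. With array quality as a covariate 6 were lower there and 0 apoptosis genes passed, and without tumor 73 apoptosis gave 0. Apoptosis gave 2 with the run as a covariate and 2 with dim genes left out. The fit within groups gave 343 genes and 31 on chromosome 3. With array quality it gave 689 and 53, in the first run 35 and 3, in the second 27 and 14, without arrays 109 to 120 187 and 19, in low tumors 0 and 0, and in high tumors 182 and 16. The causes were not tested. No paired analysis was possible because the labels name 1 array for each animal. Chromosome 3 calls kept their direction in each of the 14 alternatives that tested them (D3Ertd751e, a dim gene, in 13). Xiap, Jak1, Jak2, Bak1, Ifit2 and Ifngr1 were followed because of their unadjusted p. The number of arrays limits precision, and genes near the floor have compressed differences. Probe sequences were not used here, so whether a probe covers a base that differs between the strains was not tested.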
